A study of Mus musculus with 2 samples.

Results

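The genes described here are 10 immune checkpoint genes of the mouse, chosen by name: the CD28-family receptors Cd28, Ctla4, Icos and Pdcd1, the B7 ligands Cd80, Cd86, Cd274 and Pdcd1lg2, and the inhibitory receptors Lag3 and Havcr2. All 10 had reads in both gene tables, out of 16428 genes with a read in at least 1 table. The tables identify them by Entrez gene numbers: 12487 (Cd28), 12477 (Ctla4), 54167 (Icos), 18566 (Pdcd1), 12519 (Cd80), 12524 (Cd86), 60533 (Cd274), 58205 (Pdcd1lg2), 16768 (Lag3) and 171285 (Havcr2). The study profiled leukaemia-associated macrophages, the macrophages of tissue that leukaemia has entered, by RNA sequencing. There was 1 library of macrophages sorted from bone marrow and 1 of macrophages sorted from spleen. Both came from unirradiated C57BL/6J mice, aged 6 to 8 weeks per the labels, that had received 500000 GFP-positive MLL-AF9 acute myeloid leukaemia cells each. Cells were taken at day 15 of a disease with a survival of 25 to 30 days, so leukaemia was common to both libraries and a healthy group was not analysed here. How the macrophages were gated, how many mice were pooled and which promoter drove the fusion gene were not stated in the sources used here.

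T cells need a second signal beside the antigen receptor, and CD28 delivers it when it meets CD80 or CD86 on an antigen-presenting cell. CTLA-4 binds the same ligands more tightly and restrains the response, ICOS is a CD28 relative with its own ligand, and PD-1, the product of Pdcd1, inhibits T cells when it meets PD-L1 (Cd274) or PD-L2 (Pdcd1lg2). LAG-3 is a CD4-like inhibitory receptor that binds MHC class II, and TIM-3, the product of Havcr2, is an inhibitory receptor of T cells that dendritic cells and macrophages also carry. Macrophages, dendritic cells and B cells are known sources of the B7 ligands, whereas the CD28-family receptors are mainly genes of T cells.

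The promoters of 6 of the 10 genes were found in the RefSeq promoter table (GRCm38.p6): those of Ctla4, Pdcd1, Cd274, Pdcd1lg2, Cd80 and Havcr2. The 250 bases before each start were searched on both strands for 6 motifs of factors known to act on immune genes: TTCNNNGAA (GAS, the STAT site), GAAA and GAAA spaced by NN (ISRE, the interferon response element), GGGA and TTTCC spaced by N (NF-kB), TGANTCA (AP-1), TGGAAA (NFAT) and GAGGAAGT (PU.1). All 3 windows with a match are shown, and they belong to a CD28-family receptor, a B7 ligand and another inhibitory receptor. Each of these genes was lower in the bone marrow library, and so were Cd274 and Pdcd1lg2, whose windows had no match. Pdcd1, whose window also had no match, lay within 2-fold. A link between matches and levels was not tested. The 3 windows shown lie on the plus strand at chr1:60908775-60909024 (Ctla4), chr16:38458683-38458932 (Cd80) and chr11:46454681-46454930 (Havcr2), and capitals mark the matches.
Ctla4: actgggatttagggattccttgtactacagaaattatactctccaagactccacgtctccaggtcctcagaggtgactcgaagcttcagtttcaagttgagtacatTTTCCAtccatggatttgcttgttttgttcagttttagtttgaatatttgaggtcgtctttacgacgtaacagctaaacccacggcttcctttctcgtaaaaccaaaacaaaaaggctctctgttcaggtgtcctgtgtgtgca
Cd80: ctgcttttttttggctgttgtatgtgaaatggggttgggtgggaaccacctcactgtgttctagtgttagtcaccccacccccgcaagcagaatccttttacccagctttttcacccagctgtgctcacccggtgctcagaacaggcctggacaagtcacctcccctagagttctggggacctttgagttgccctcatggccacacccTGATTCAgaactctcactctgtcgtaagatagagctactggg
Havcr2: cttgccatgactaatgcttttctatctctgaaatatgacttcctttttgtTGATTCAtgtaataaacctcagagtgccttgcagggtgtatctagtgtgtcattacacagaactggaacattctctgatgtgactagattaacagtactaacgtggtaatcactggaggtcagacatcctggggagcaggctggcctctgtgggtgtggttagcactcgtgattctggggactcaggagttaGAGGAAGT
The Ctla4 window held 1 NFAT match in the reverse orientation, 144 to 139 bases before the start. The Cd80 window held 1 AP-1 match, 42 to 36 bases before the start, and the Havcr2 window held 1 AP-1 match and 1 PU.1 match. AP-1 thus had a match in 2 of 6 windows, against 6.75% of all 32851 windows of the table, NFAT in 1 of 6 against 18.6%, and PU.1 in 1 of 6 against 2.44%. The GAS, ISRE and NF-kB letters were in 0 of the 6 windows and in 7.02%, 2.98% and 0.356% of all windows. A match is a description of the letters and not a bound site.

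The libraries held 9.63 M (bone marrow) and 8.26 M (spleen) uniquely placed reads. Markers of many cell types were present in both, and none of 116 listed markers was at 0 reads. Macrophage markers had 8 of 14 members lower in bone marrow by at least 2-fold and 0 higher, with Csf1r, which encodes the M-CSF receptor, at 197 CPM in bone marrow, against 364 CPM in spleen (CPM, reads per 1000000 after scaling). All 15 T cell markers, all 10 B cell markers, 9 of 10 dendritic cell markers, 6 of 7 plasma cell markers and 4 of 6 regulatory T cell markers were lower in bone marrow. NK cell markers had 4 of 8 lower and 1 higher, plasmacytoid dendritic cell markers 1 of 5 lower, and erythroid markers 1 of 5 lower. In the other direction, 11 of 12 neutrophil and precursor markers and all 7 basophil, mast cell and eosinophil markers were higher in bone marrow. So were 5 of 6 progenitor and leukaemia-associated markers, 4 of 5 megakaryocyte markers and 2 of 6 monocyte markers. Over all 12970 measured genes, 14.6% were lower in bone marrow by at least 2-fold and 14.1% were higher. Summed, neutrophil and precursor markers gave 47284 CPM in bone marrow, against 2178 CPM in spleen, and macrophage markers 604 and 1321 CPM. Progenitor and leukaemia-associated markers gave 1158 CPM in bone marrow, against 246 CPM in spleen. The part of leukaemic or granulocytic RNA in the checkpoint results was not tested. By RPKM the most abundant marker was Tcf7 for T cells, at 33.3 CPM in bone marrow, against 361 CPM in spleen, Cd79a for B cells, at 119 and 867 CPM, and Ccr7 for dendritic cells, at 8.29 and 264 CPM. The most abundant neutrophil marker was S100a9, at 8965 CPM in bone marrow, against 533 CPM in spleen. In bulk RNA, fewer cells of a type and less RNA per cell cannot be told apart. With 1 library per tissue there was no replicate, no p-value was computed, and every interval given is a 95% interval for counting error only.

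Of the 10 checkpoint genes, 8 were lower in the bone marrow library by at least 2-fold, 0 were higher and 2, Pdcd1 and Lag3, lay within 2-fold. Among all 12970 measured genes, 14.6% were lower in bone marrow by at least 2-fold and 14.1% were higher, 28.8% in all. The median difference of the 10 genes was -2.65 on the log2(CPM + 1) scale, bone marrow minus spleen, and that of all measured genes was 0.03. By at least 4-fold, 7 of the 10 were lower in bone marrow, against 4.09% of measured genes (4.42% were higher by as much), with Cd274 leaving the count. All 10 passed the floor of 1 CPM and 10 reads in a library.

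**Figure D1:**
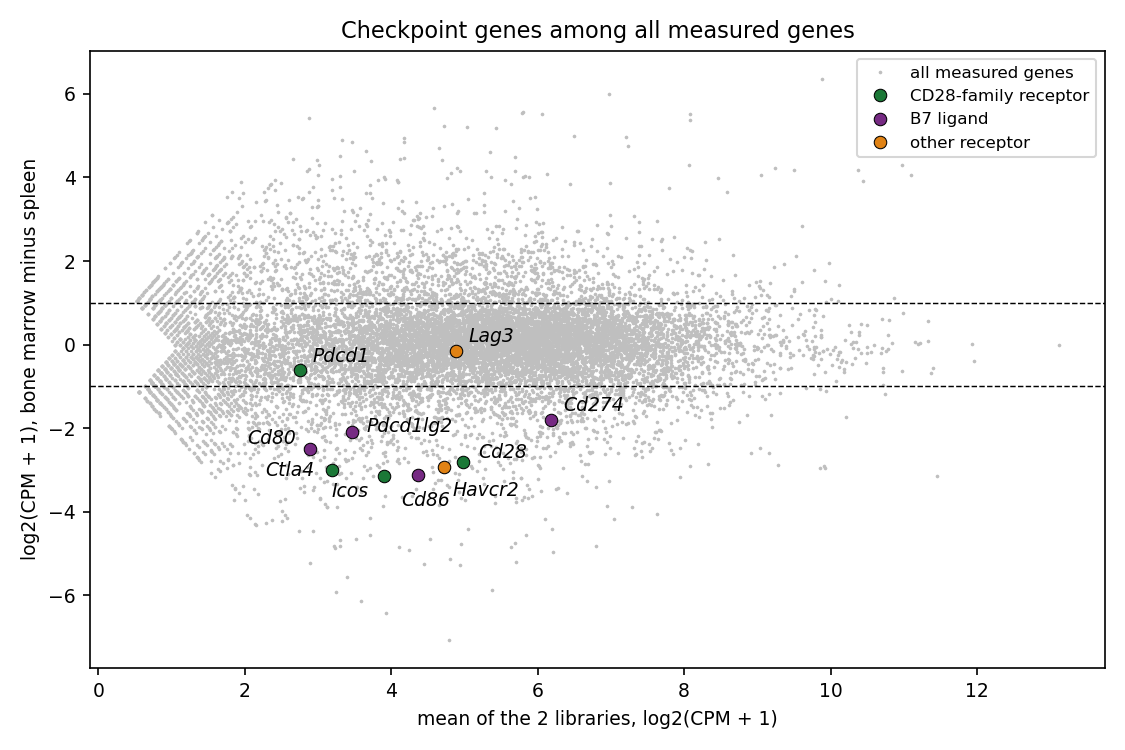
Each grey point is 1 of 12970 measured genes, with the mean of both libraries on the x axis and the difference, bone marrow minus spleen, on the y axis, both on log2(CPM + 1), and coloured points are the 10 checkpoint genes by role. Dashed lines mark 2-fold. Pdcd1 and Lag3 sit between the lines and the other 8 genes lie below the lower one, from -1.80 (Cd274) to -3.14 (Icos).

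Of the CD28-family receptors, 3 of 4 were lower in bone marrow, and those were the costimulatory receptors Cd28 and Icos and the inhibitory receptor Ctla4. Cd28 had 103 reads in bone marrow, against 701 in spleen, or 10.95 and 82.9 CPM. That made it 7.57-fold lower in bone marrow (6.15 to 9.40). Ctla4, which regulatory T cells express constitutively, had 21 reads in bone marrow, against 209 in spleen, or 2.23 and 24.7 CPM, and was 11.1-fold lower (7.05 to 18.3). Foxp3, the defining factor of regulatory T cells, was at 10 reads in bone marrow, against 180 in spleen. It was 1 of 4 regulatory T cell markers, out of 6, that were at least 2-fold lower there. The remaining 2 did not share this. Ikzf2 was at 45.7 CPM in bone marrow, against 42.1 CPM in spleen, and Il2rb, the most abundant by RPKM, at 155 and 220 CPM. The part of regulatory T cells in the Ctla4 result was not tested. Icos, which activated and follicular helper T cells carry, had 38 reads in bone marrow, against 367 in spleen, or 4.04 and 43.4 CPM, and was 10.7-fold lower (7.68 to 15.4). The intervals of these 3 folds overlapped each other.

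Pdcd1 was the receptor of this family that stayed within 2-fold. It had 42 reads in bone marrow, against 62 in spleen, or 4.47 and 7.33 CPM, and the fold of 1.64 towards the lower side in bone marrow had an interval of 1.09 to 2.49, which excluded 1 and reached past 2. The ratio of Pdcd1 to Cd28 reads per length was 0.893 in bone marrow (0.608 to 1.29) and 0.194 in spleen (0.147 to 0.251). That is a 4.60-fold higher ratio in the bone marrow library (2.87 to 7.33). The ratio of Ctla4 to Cd28 was 0.456 in bone marrow, against 0.667 in spleen, and the ratio of Icos to Cd28 was 0.487 and 0.691. Their changes between libraries, 0.684 (0.396 to 1.13) and 0.705 (0.462 to 1.06), had intervals that included 1.

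All 4 B7 ligands were lower in bone marrow, by 3.54-fold to 10.0-fold. Cd274, which encodes PD-L1, had 357 reads in bone marrow, against 1137 in spleen, or 38.0 and 134 CPM. It was 3.54-fold lower in bone marrow (3.14 to 4.0), the smallest fold among the 4. Pdcd1lg2, which encodes PD-L2, had 41 reads in bone marrow, against 184 in spleen, or 4.36 and 21.8 CPM, and was 4.99-fold lower (3.54 to 7.18). PD-L1 is made by many cell types and PD-L2 mainly by dendritic cells, macrophages and some B cells. Cd80 had 20 reads in bone marrow, against 140 in spleen, or 2.13 and 16.6 CPM, and was 7.78-fold lower (4.85 to 13.1). Cd86, the B7 ligand that resting antigen-presenting cells already display, had 56 reads in bone marrow, against 505 in spleen, or 5.95 and 59.7 CPM, and was 10.0-fold lower (7.60 to 13.5).

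The proportions of the ligands also differed between the libraries. The ratio of Cd274 to Cd86 per length was 4.43 in bone marrow (3.34 to 5.98) and 1.56 in spleen (1.41 to 1.74), a 2.83-fold higher ratio in bone marrow (2.09 to 3.90). Within each ligand pair the interval of the change included 1. The ratio of Cd86 to Cd80 was 1.88 in bone marrow, against 2.42 in spleen, a change of 0.777 (0.441 to 1.41), and that of Cd274 to Pdcd1lg2 was 8.14 and 5.78, a change of 1.41 (0.977 to 2.07). Summed over the ligands, bone marrow held 50.4 CPM and spleen 232 CPM, and summed over the CD28-family receptors, 21.7 and 158 CPM.

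The inhibitory receptors Lag3 and Havcr2 differed from each other. Lag3 had 256 reads in bone marrow, against 255 in spleen, or 27.2 and 30.1 CPM, and the fold of 1.11 towards the lower side in bone marrow had an interval of 0.928 to 1.32. Havcr2 had 81 reads in bone marrow, against 609 in spleen, or 8.61 and 72.0 CPM, and was 8.36-fold lower in bone marrow (6.62 to 10.7). The ratio of Lag3 to Cd28 per length was 5.31 in bone marrow, against 0.777 in spleen, 6.82-fold higher in bone marrow (5.17 to 9.04). The ratio of Havcr2 to Cd28 was 1.25 and 1.38, a change of 0.905 (0.654 to 1.25). NK cells and plasmacytoid dendritic cells also express Lag3. Of the 8 NK cell markers, Nkg7 was 2.14-fold higher in bone marrow, Klrd1, Gzma, Prf1 and Eomes were 2.24-fold to 4.54-fold lower, and Ncr1, Klrb1c and Gzmb lay within 2-fold. Siglech, a defining gene of plasmacytoid dendritic cells, was at 26.0 CPM in bone marrow, against 23.8 CPM in spleen. Summed, the 8 NK cell markers gave 340 CPM in bone marrow, against 393 CPM in spleen, of which Nkg7 gave 195 and 91.4 CPM, and the other 7 gave 145 and 302 CPM. The 5 plasmacytoid dendritic cell markers gave 184 and 463 CPM, of which Ly6d, which B lineage cells also express, gave 21.9 and 250 CPM. Their part in the Lag3 result was not tested.

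**Figure D2:**
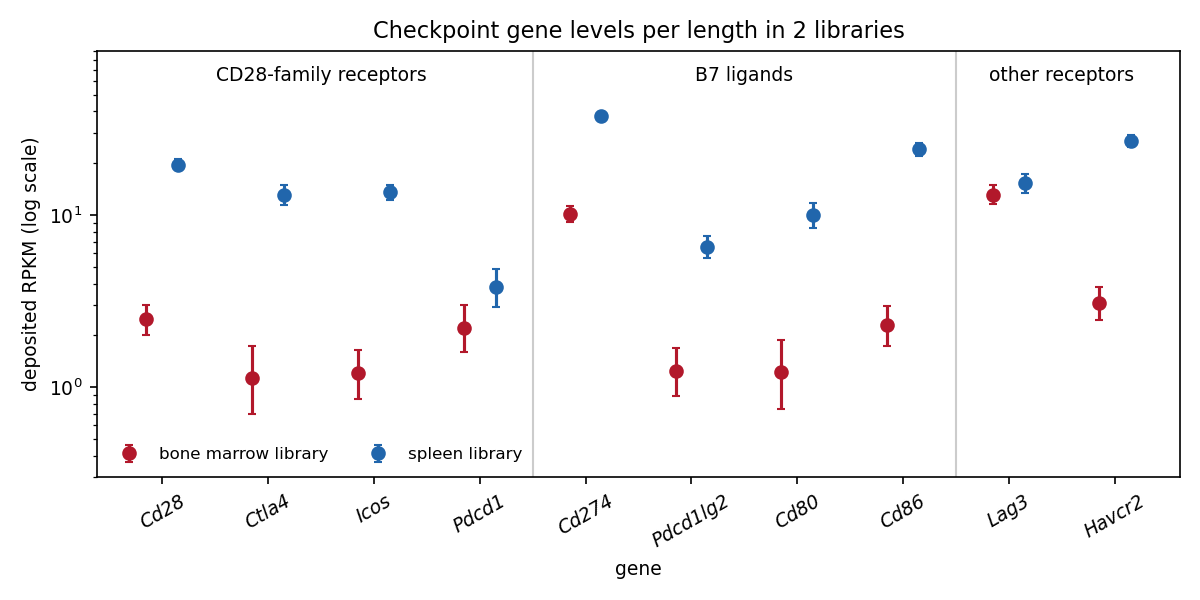
The y axis gives the deposited RPKM on a log scale for each checkpoint gene, with the bone marrow library (red) left of the spleen library (blue), and bars are 95% Poisson intervals for counting error. Intervals of the libraries overlap for Pdcd1 and Lag3 and are apart for the other 8 genes.

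Levels of different genes were compared on the deposited RPKM, which divides reads by gene length. In bone marrow Lag3 was highest at 13.2 RPKM and Cd274 followed at 10.2 RPKM, a ratio of 1.30 (1.10 to 1.53). Havcr2 (3.09), Cd28 (2.48), Cd86 (2.29) and Pdcd1 (2.21) came next, and none of these neighbours differed beyond counting error. Pdcd1lg2 (1.25), Cd80 (1.22), Icos (1.21) and Ctla4 (1.13) were lowest, again without a difference between neighbours. In spleen the order was Cd274 (37.7), Havcr2 (27.0), Cd86 (24.1), Cd28 (19.6), Lag3 (15.3), Icos (13.6), Ctla4 (13.1), Cd80 (9.96), Pdcd1lg2 (6.52) and Pdcd1 (3.80). There the neighbours Havcr2 and Cd86, Lag3 and Icos, and Icos and Ctla4 were not separated by counting error. Lag3 was thus 1st in bone marrow and 5th in spleen, and Pdcd1 was 6th and 10th. Placed among all listed genes, Cd274 exceeded 56.8% of genes in bone marrow and 85.3% in spleen, Ctla4 27.4% and 61.8%, and Lag3 62.4% and 65.4%. The reads covered 39.2% (Cd80) to 95.1% (Cd274) of gene length in bone marrow and 79.3% (Pdcd1) to 99.2% (Cd28) in spleen in the deposited tables.

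All 15 T cell markers were lower in bone marrow by at least 2-fold, as were Cd28, Ctla4 and Icos but not Pdcd1 and Lag3. All 10 B cell markers and 9 of 10 dendritic cell markers were lower too. The 15 T cell markers, Cd3d, Cd3e and Cd3g among them, summed to 2069 reads in bone marrow and 15908 reads in spleen. Per 1000 of these reads, Cd28 had 49.8 reads in bone marrow, against 44.1 in spleen, a ratio of 1.13 (0.905 to 1.40). Ctla4 had 10.1 in bone marrow, against 13.1 in spleen (ratio 0.773, 0.467 to 1.22), and Icos had 18.4 and 23.1 (0.796, 0.553 to 1.12). On this denominator the intervals of Cd28, Ctla4 and Icos included 1. So did those of Havcr2 (ratio 1.02, 0.797 to 1.30), Cd80 (1.10, 0.649 to 1.77) and Cd86 (0.853, 0.633 to 1.13). Pdcd1 had 20.3 reads per 1000 T cell marker reads in bone marrow, against 3.90 in spleen, 5.21-fold higher in bone marrow (3.42 to 7.85). Lag3 had 124 in bone marrow, against 16.0 in spleen, 7.72-fold higher (6.42 to 9.27). The CD28-family receptors together had 98.6 in bone marrow, against 84.2 in spleen, a ratio of 1.17 (0.999 to 1.37), and 0.975 without Pdcd1. These ratios describe the RNA of mixed libraries and do not assign a transcript to a cell type.

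Other denominators were chosen after the values were seen. Each multiplies all 10 ratios by 1 constant, so it moves their place relative to 1 and not their order. Per 1000 NK cell marker reads, Lag3 had 80.0 reads in bone marrow, against 76.7 in spleen, a ratio of 1.04 (0.867 to 1.25), and Pdcd1 had 13.1 and 18.6 (0.704, 0.462 to 1.06). Cd28, Ctla4 and Icos were at ratios of 0.153, 0.104 and 0.108 there. Nkg7 carried much of that sum, and without it the Lag3 ratio was 1.88 (1.55 to 2.27) and the Pdcd1 ratio 1.27 (0.831 to 1.92). Per 1000 macrophage marker reads, Cd274 had 62.8 reads in bone marrow, against 102 in spleen (ratio 0.617, 0.544 to 0.699), Cd86 had 9.86 and 45.2 (0.218, 0.162 to 0.288), and Havcr2 had 14.3 and 54.5 (0.262, 0.204 to 0.331). Per 1000 dendritic cell marker reads, Cd80 had 11.7 in bone marrow, against 13.6 in spleen (0.862, 0.510 to 1.39) and Havcr2 had 47.5 and 59.2 (0.803, 0.625 to 1.02), with intervals that included 1. On that denominator Cd86 was at 0.669 (0.496 to 0.888) and Cd274 at 1.90 (1.66 to 2.16). Without Flt3, which progenitors also express, the interval of Cd86 included 1 (0.995, 0.735 to 1.32), and without Ccr7 the Havcr2 ratio was 0.659 (0.513 to 0.837). Each omission moved all ratios on that denominator alike, up without Flt3 and down without Ccr7, so their place relative to 1 depends on the markers kept. Per 1000 B cell marker reads, Cd86 had 12.6 in bone marrow, against 12.1 in spleen (1.05, 0.779 to 1.38), Cd80 was at a ratio of 1.35 (0.799 to 2.17) and Cd274 at 2.97 (2.61 to 3.36). Ctla4 (0.949, 0.575 to 1.49) and Icos (0.978, 0.680 to 1.37) also had intervals that included 1 there, and Cd28 was at 1.39 (1.11 to 1.71). Per plasmacytoid dendritic cell marker read, Lag3 was at 2.27 (1.88 to 2.73), and at 1.18 (0.977 to 1.43) without Ly6d. Because the T, B and dendritic cell markers were all lower in bone marrow, their parts in the results for the receptors and ligands cannot be told apart here.

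**Figure D3:**
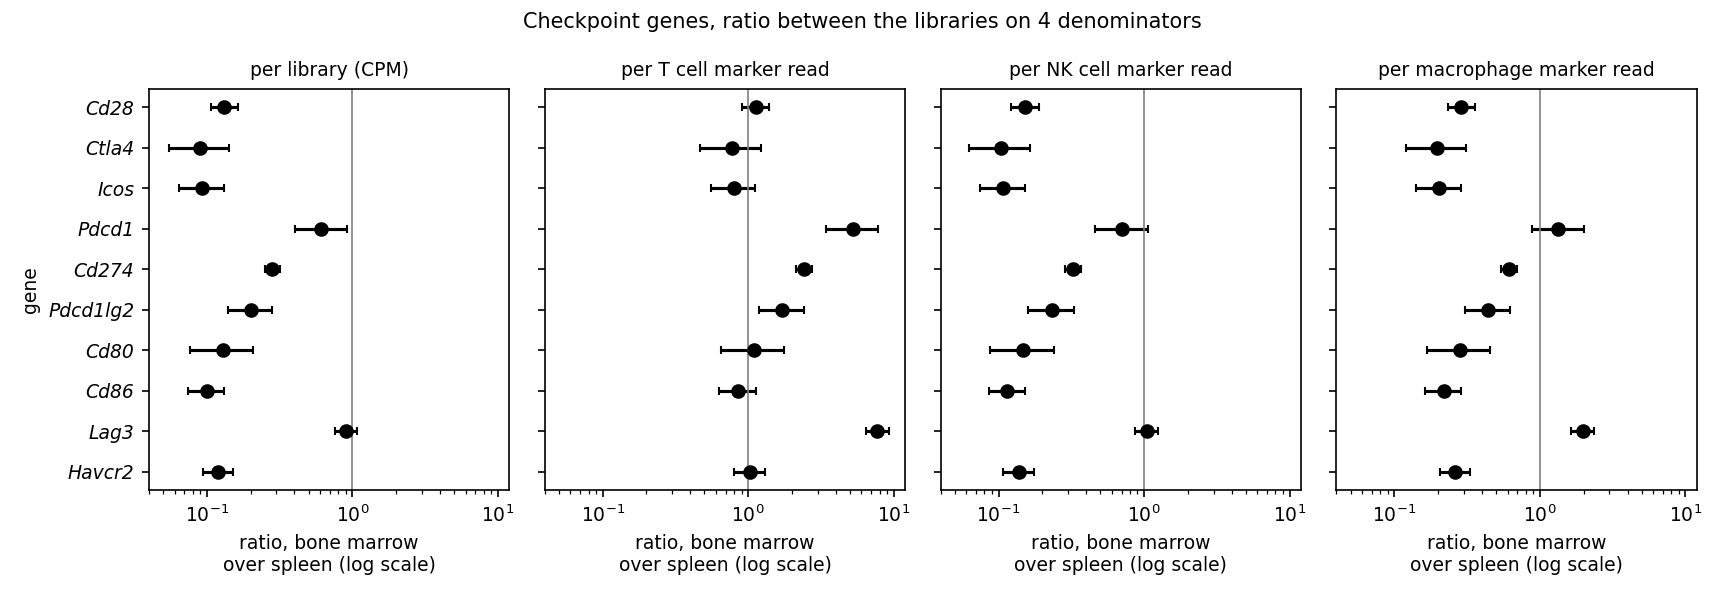
Each panel gives the ratio, bone marrow over spleen, on a log axis for the 10 checkpoint genes, with reads scaled to the library, to T cell markers, to NK cell markers or to macrophage markers, and bars are 95% counting intervals. Cd28, Ctla4, Icos, Cd80, Cd86 and Havcr2 move from below 1 in the first panel to intervals that include 1 per T cell marker read. Lag3 (7.72) and Pdcd1 (5.21) lie furthest to the right there.

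For the related lists below, the shares to set beside the counts are 14.6% lower and 14.1% higher, as over all measured genes. Among the other B7 and CD28 relatives, 3 of 6 measured genes were lower in bone marrow and 0 were higher. Btla, an inhibitory receptor of B and T cells, had the largest difference at 14.9 CPM in bone marrow, against 340 CPM in spleen, 22.8-fold lower (19.3 to 27.3). Vsir, which encodes the B7-like inhibitor VISTA of myeloid cells, was the most abundant of them, at 376 CPM in bone marrow, against 247 CPM in spleen, within 2-fold. Icosl, the ligand of ICOS, named after its values were seen, was at 23.6 CPM in bone marrow, against 290 CPM in spleen, 12.3-fold lower (10.7 to 14.2). Vtcn1 and Btn1a1 had no read in either library, and Btn2a2 had 0 and 3 reads. Taking 3 reads as the limit behind a count of 0, levels of up to 0.319 CPM (bone marrow) and 0.355 CPM (spleen) could go unseen.

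Of 13 genes of other inhibitory and costimulatory pairs, 8 were lower in bone marrow and 0 higher. Cd200, which restrains myeloid cells through its receptor, was at 3.51 CPM in bone marrow, against 35.1 CPM in spleen. Cd47, the "do not eat me" signal that macrophages read through SIRPA, was at 272 and 197 CPM, within 2-fold. Of 7 measured TNF-family costimulatory genes, 4 were lower and 0 higher. Cd40, the B cell and dendritic cell receptor for CD40 ligand, was at 4.57 CPM in bone marrow, against 67.5 CPM in spleen, and Cd27 at 59.3 and 71.5 CPM. Cd70, the ligand of CD27, had 0 and 1 read.

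Of the 7 measured ligands of LAG-3 and TIM-3, 3 were lower in bone marrow, 3 were higher and 1 lay within 2-fold. The 3 lower genes were MHC class II chains, ligands of LAG-3, with H2-Aa at 348 CPM in bone marrow, against 2713 CPM in spleen and H2-Eb1 at 331 and 2588 CPM. Lgals3, which encodes galectin-3, another reported LAG-3 ligand, was at 76.9 CPM in bone marrow, against 72.8 CPM in spleen. The 3 higher genes were proposed ligands of TIM-3. Ceacam1, an adhesion molecule, was at 155 CPM in bone marrow, against 57.6 CPM in spleen, 2.69-fold higher (2.43 to 2.99), and Lgals9, which encodes galectin-9, and Hmgb1, a chromatin protein, were 2.65-fold and 2.57-fold higher. Uniquely placed reads leave Ceacam1, which has a close paralog, and Hmgb1, which has many processed pseudogenes, uncertain. Fgl1, a further LAG-3 ligand, had no read in either library.

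**Figure D4:**
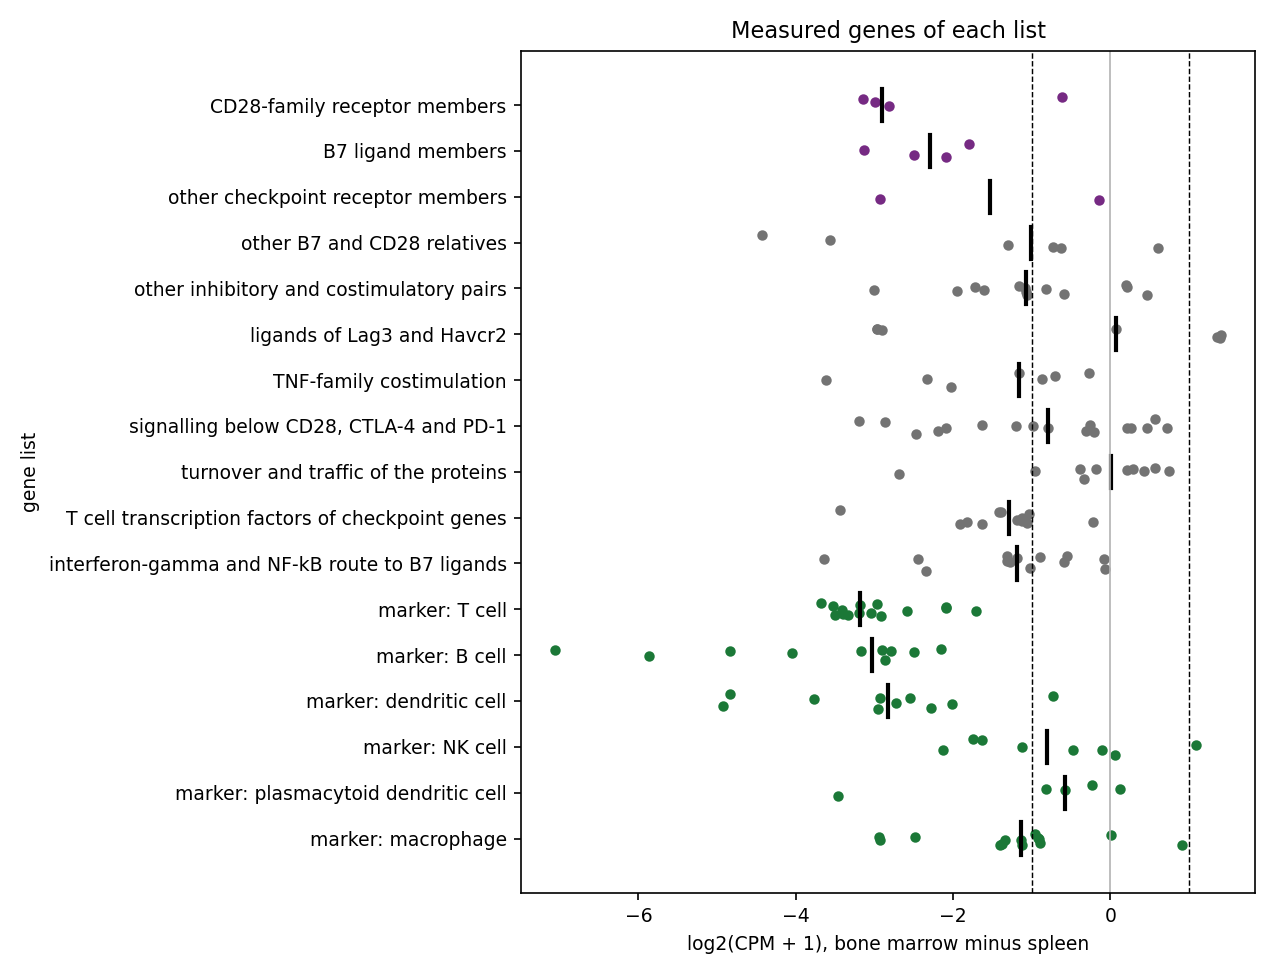
Each point is 1 measured gene, placed by log2(CPM + 1) in bone marrow minus spleen, in the checkpoint groups (purple), related gene lists (grey) and cell type markers (green), and a vertical bar is the list median. Dashed lines mark 2-fold. The T cell, B cell and dendritic cell marker medians, -3.18, -3.03 and -2.83, lie near the CD28-family receptor median of -2.90, and the list of LAG-3 and TIM-3 ligands has points on both sides.

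Genes of signalling below CD28, CTLA-4 and PD-1 had 7 of 17 members lower in bone marrow and 0 higher, with a median of -0.79. Grap2, an adaptor of T cell signalling, was at 17.0 CPM in bone marrow, against 164 CPM in spleen. The phosphatase gene Ptpn6 (SHP-1), found throughout the blood lineages, was at 419 and 723 CPM, and the kinase gene Akt1 at 342 and 207 CPM, both within 2-fold. Of 10 genes of protein turnover and traffic, 1 was lower and 0 higher, against 14.6% and 14.1% of all measured genes. The lower gene was Marchf1, the ubiquitin ligase that removes CD86 and MHC class II from the cell surface. It was at 24.7 CPM in bone marrow, against 164 CPM in spleen. Ap2m1, a clathrin adaptor subunit that internalises CTLA-4, was at 344 and 232 CPM, and Cops5, a deubiquitinase that stabilises PD-L1, at 83.9 and 49.5 CPM.

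Transcription factors of checkpoint genes in T cells had 11 of 12 members lower in bone marrow and 0 higher, with a median of -1.29. Nr4a1, an early gene of antigen receptor signalling, was at 128 CPM in bone marrow, against 279 CPM in spleen, and Batf was at 17.5 and 20.6 CPM, within 2-fold. Genes of the interferon-gamma and NF-kB route to the B7 ligands had 8 of 13 members lower and 0 higher, with a median of -1.18. Relb, a subunit of the alternative NF-kB pathway, had the largest difference at 14.9 CPM in bone marrow, against 197 CPM in spleen. Stat3 was at 269 and 282 CPM, and Ifngr1, a chain of the interferon-gamma receptor, at 237 and 251 CPM. Many of these genes are also expressed by T cells, B cells and dendritic cells, whose markers were lower in bone marrow (medians -3.18, -3.03 and -2.83). The part of those cells was not tested.

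Some of the checkpoint genes lie together on the chromosomes. In the RefSeq order of protein-coding genes, Cd28, Ctla4 and Icos follow each other on chromosome 1, and Cd274 and Pdcd1lg2 are neighbours on chromosome 19. Pdcd1 is also on chromosome 1, Cd80 and Cd86 are both on chromosome 16 without being neighbours, and Havcr2 is on chromosome 11. The genes flanking the first cluster did not share its difference, with Raph1 at 8.82 CPM in bone marrow, against 10.3 CPM in spleen and Pard3b at 7.23 and 2.25 CPM. Beside the second, Plgrkt was at 30.1 and 48.5 CPM and Ric1 at 36.7 and 64.1 CPM. Lag3 lies between Cd4 and Ptms on chromosome 6, and Cd4 was at 18.7 CPM in bone marrow, against 221 CPM in spleen, whereas Lag3 was within 2-fold. Ptms was at 50.7 and 145 CPM. The spans of Cd274 and Cd80 overlap other annotated genes, Plgrkt among them, and since strand use in counting was not stated, reads of overlapping genes could not be told apart.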

How the data were processed

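RNA from sorted macrophages was sequenced in 2 libraries, 1 from bone marrow and 1 from spleen, as standard Illumina libraries per the labels' protocols. The aligner, the counting program and the build are not given here by any source used, and neither is the annotation. For each gene the authors deposited, per the file headers, a count of uniquely placed reads, the gene length, the percent of that length covered, and an RPKM value, which is the count per kilobase and 1000000 reads. Counts summed to the header totals, the RPKM values were recomputed to within 6.7e-06 percent, and a gene not listed had no read.

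From these files the following was computed. Genes were joined on the Entrez identifier, since 23 symbols per table had become dates. RefSeq (GRCm38.p6) named 16379 of 16428. Counts were scaled to CPM with TMM factors of 0.977 (bone marrow) and 1.02 (spleen; edgeR 4.0.16, R 4.3.3). A gene was measured where a library had 10 or more reads at 1 CPM or above, and called past 2-fold on log2(CPM + 1), bone marrow minus spleen, which understates low genes. Folds are CPM ratios with exact conditional binomial (Clopper-Pearson) intervals, ratios of ratios have exact conditional odds-ratio intervals, and levels have exact Poisson intervals (scipy 1.17.1). These are 95% intervals that cover counting error only, since without molecular identifiers PCR copies of 1 molecule count repeatedly. With 1 library per tissue nothing was tested. The calling was checked on simulated Poisson counts.

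The 10 genes, 8 lists of related genes (92 symbols) and 14 marker lists (116 symbols) were chosen with earlier results of these data known. Named from each related list were the genes with the largest and smallest difference and the most abundant by RPKM, and from the marker lists the most abundant or those at 0 reads. Not every gene so taken is reported. Ncr1, Klrb1c, Klrd1, Gzma, Gzmb, Prf1, Eomes, Siglech, Bst2, Tcf4, Ccr9, Flt3, Ikzf2, Lgals3, Lgals9, Hmgb1, Cd3d, Cd3e, Cd3g and Cd4 were named after their values were seen. Lists overlap (Trat1, Foxp3, Eomes and Prdm1 are in 2). Other settings tried were library totals or DESeq2 1.42.0 size factors as the scaling, TMM without marker genes, the deposited RPKM, a pseudocount of 0.1 or 5, a floor of 10 CPM or none, a 4-fold rule and other denominators.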

Additional observations from a re-analysis of the deposited data

How the results depend on the processing

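The count of checkpoint genes lower in bone marrow was 8 with DESeq2 size factors, library totals or TMM factors without marker genes, with the deposited RPKM, with a pseudocount of 0.1 or 5 and with a floor of 10 CPM or none, and 7 under a 4-fold rule. The count higher in bone marrow was 0 under all 9 alternatives. Of 60 recomputed log2 differences of single checkpoint genes, 0 changed sign and 7 moved past a tolerance. The tolerance was the distance from the middle to an end of the gene's counting interval on the log2 scale. All 7 came with a pseudocount of 5, which shrinks low genes by construction. Of all measured genes, 1898 were lower in bone marrow, 1210 with a pseudocount of 5 and 530 under a 4-fold rule, and 1832 were higher, 573 under a 4-fold rule. Of the related genes (92 symbols, not all measured), 45 were lower and 3 higher, against 19 and 0 under a 4-fold rule. The shares over all measured genes were 14.6% lower and 14.1% higher, and 4.09% and 4.42% under the 4-fold rule. The ratio of the CD28-family receptors per T cell marker read was 1.17, 0.975 without Pdcd1 and, chosen after seeing the data, 5.21 for Pdcd1 alone. With Cd3d, Cd3e and Cd3g alone, or summed RPKM, it stayed within its counting interval. No scaling moved the median of all measured genes by over 0.1 on the log2 scale. No paired analysis was possible because each tissue had 1 library. Leaving out single markers, also chosen after seeing the data, moved the ratios per T cell marker read by at most 1.08 times. Leaving Nkg7 out of the NK cell list moved the ratios per NK cell marker read by 1.80 times. Leaving Ly6d out of the plasmacytoid dendritic cell list changed the ratios on that denominator still more. Leaving Flt3 or Ccr7 out of the dendritic cell list also changed them, as given above. Depth limits Ctla4, Cd80, Icos, Pdcd1lg2 and Pdcd1, with 20 to 42 reads in bone marrow.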
